A study of Homo sapiens with 18 samples.

Results

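The insulin-like growth factor (IGF) system was followed in 3 Ewing sarcoma cell lines through 10 genes: the ligands IGF1 and IGF2, the receptors IGF1R and IGF2R, and the binding proteins IGFBP2 to IGFBP7. They are the rows with these symbols among the 58381 rows of each deposited count table, and each symbol had 1 row. Ewing sarcoma is a tumour of bone and soft tissue driven by a fusion of EWSR1 to FLI1, a transcription factor gene of the ETS family. TC-32, TC-71 and A673 are established lines that carry this fusion. In each line, 3 libraries came from cells reverse transfected with 20 nM of a small interfering RNA against FLI1 (siFLI1), and 3 from cells given a negative control RNA (siNeg), making 18 libraries in 6 groups. The further line ES-5838 and the further RNA siERG, which the series text names, are not analysed here. The labels do not say whether the 3 libraries of a group came from separate cultures, so p-values measure the spread between these libraries, which may be technical.

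IGF1 and IGF2 are secreted growth factors that activate IGF1R, a receptor tyrosine kinase, which signals through the IRS and SHC adaptors to PI3K, AKT and mTOR and to the MAP kinases. IGF2R, also the cation-independent mannose 6-phosphate receptor, has no kinase and carries IGF2 to lysosomes for breakdown, and the IGF binding proteins hold the ligands outside the cell, where they can block them, carry them or lengthen their life. Ewing sarcoma cells are known for growth that depends on IGF1 and IGF1R, antibodies against IGF1R have been tested in patients, and IGFBP3 is a known repressed target of the fusion.

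FLI1, whose reads come from the fusion transcript and from any intact FLI1 transcript, was lower in siFLI1 in every line, by a log2 fold change (LFC, siFLI1 against siNeg) of -2.09 in A673, -1.47 in TC-71 and -1.03 in TC-32. The Ewing sarcoma markers NKX2-2, NR0B1 and STEAP1 were detected in every line. CD99 was detected in TC-32 and A673 but was listed at 0 counts in every TC-71 library. CD99 lies in the pseudoautosomal region, which the X and Y chromosomes share, and has a row for each copy, both at 0. Absent expression and the counting tool, which differs for TC-71, cannot be told apart here and were not tested. Group means of PTPRC, CD3E, EPCAM, KRT5, PECAM1 and CDH5, markers of blood, epithelial and endothelial cells, did not exceed 2.10 CPM (counts scaled to the library total). A673 libraries held 114564479 to 120993595 counts, TC-32 libraries 24102487 to 33669271 and TC-71 libraries 19685354 to 37234528. Depth, growth medium (RPMI for TC-32 and TC-71, DMEM for A673) and the counting tool named on the table (RSEM for TC-32 and A673, Subread for TC-71) differ between the lines. The column names give 48 h for TC-32 and TC-71 and no time for A673. These differences cannot be told apart from the line in any comparison between lines. CPM were scaled within each line, except in the search for similar genes. That search and the model of differences between lines used scaling factors from all 18 libraries. In A673, scaling by library size without TMM factors shifted the median LFC over all genes from -0.0066 to -0.11, and the share of calls that were higher from 50.1% to 40.9%; the directions of the 10 IGF genes were the same under both scalings.

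The fusion is known to bind GGAA, the core of ETS sites, both singly and in long repeats. The 250 bases upstream of a start site are shown for IGF1, whose direction differed between the lines, and for IGFBP3 and IGFBP5, the binding proteins with the largest increases in A673. The sequences are from RefSeq (GRCh38.p14) and run 5′ to 3′ on the strand of the gene, with each GGAA and its reverse complement TTCC in capitals.
IGF1, chr12:102481748-102481997, minus strand: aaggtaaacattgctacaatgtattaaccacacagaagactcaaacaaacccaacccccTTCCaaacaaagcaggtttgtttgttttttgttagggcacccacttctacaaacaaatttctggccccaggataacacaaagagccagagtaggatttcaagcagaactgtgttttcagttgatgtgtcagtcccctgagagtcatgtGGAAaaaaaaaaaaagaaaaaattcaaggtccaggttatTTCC
IGFBP3, chr7:45921273-45921522, minus strand: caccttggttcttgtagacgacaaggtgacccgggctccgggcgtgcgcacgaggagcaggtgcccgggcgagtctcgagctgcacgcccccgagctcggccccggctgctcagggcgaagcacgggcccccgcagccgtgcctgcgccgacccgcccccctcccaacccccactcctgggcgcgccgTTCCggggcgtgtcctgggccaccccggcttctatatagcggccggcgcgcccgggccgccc
IGFBP5, chr2:216695550-216695799, minus strand: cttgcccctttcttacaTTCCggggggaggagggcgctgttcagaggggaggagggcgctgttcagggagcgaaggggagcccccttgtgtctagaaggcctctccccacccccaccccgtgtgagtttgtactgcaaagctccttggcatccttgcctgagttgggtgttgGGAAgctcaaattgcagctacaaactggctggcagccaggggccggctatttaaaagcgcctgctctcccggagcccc

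GGAA or TTCC was found 3 times in the IGF1 window shown, once upstream of IGFBP3 and 2 times upstream of IGFBP5. The window of another IGF1 start site, chr12:102478551-102478800, is not shown. It held 2, and 101 of its bases lie in an IGF1 exon. The RefSeq table matched 8 of the 10 IGF genes, with 11 start sites, and has no entry for IGF2 and IGFBP7. Of these 11 windows, 10 held at least 1 GGAA or TTCC, and the number per window ran from 0 to 7. Over all 35116 promoters of the table, 92.7% held at least 1, with a median of 3 and quartiles of 2 and 4. The tandem GGAAGGAA, or TTCCTTCC on the other strand, was in 0 of the 11 windows and in 3.06% of all promoters. These letters describe the windows and do not mark bound sites, and distal elements were not searched.

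In TC-32, all 10 IGF genes passed the low-count filter and were called higher in siFLI1 by edgeR's quasi-likelihood test at a Benjamini-Hochberg adjusted p under 0.05, and 9 of them rose at least 2-fold. IGF2 held at most 9 counts per siNeg library there and passed the filter only through the siFLI1 libraries, where it is high, so its call is no support; without it, 9 of 9 were called higher and 8 rose at least 2-fold. In bulk libraries, a change in the share of cells that express a gene and a change per cell cannot be told apart. Of all 16227 genes tested in TC-32, 41.3% were called higher, 40.1% lower, and 22% higher by at least 2-fold. In A673, 9 of the 10 were called higher, 8 of them at least 2-fold, and IGF1 was called lower. The shares over all 18444 genes tested there were 35.6% higher, 35.4% lower and 13.3% higher by at least 2-fold. In TC-71, 8 of the 10 passed the filter: 7 were called higher, 4 of them at least 2-fold, and IGF1 was called lower, while IGF2 and IGFBP3, with no more than 3 counts per library, were not tested. Over all 17085 genes tested in TC-71, 36.8% were called higher, 35% lower, and 14.1% higher by at least 2-fold.

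The median LFC of the tested IGF genes was 2.21 for TC-32, 1.86 for A673 and 0.91 for TC-71, against 0.022, -0.0066 and 0.018 over all genes tested. Without IGF2, the median for TC-32 was 1.95. IGF1R, IGF2R, IGFBP2, IGFBP4, IGFBP5, IGFBP6 and IGFBP7, 7 of the 8 IGF genes tested in all 3 lines, were called higher in every line. Among the 14233 genes tested in all 3 lines, 18.9% were called higher in each. The plot of CPM by library shows every value on a log scale, and the plot of LFCs shows how far the lines differed.

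**Figure D1:**
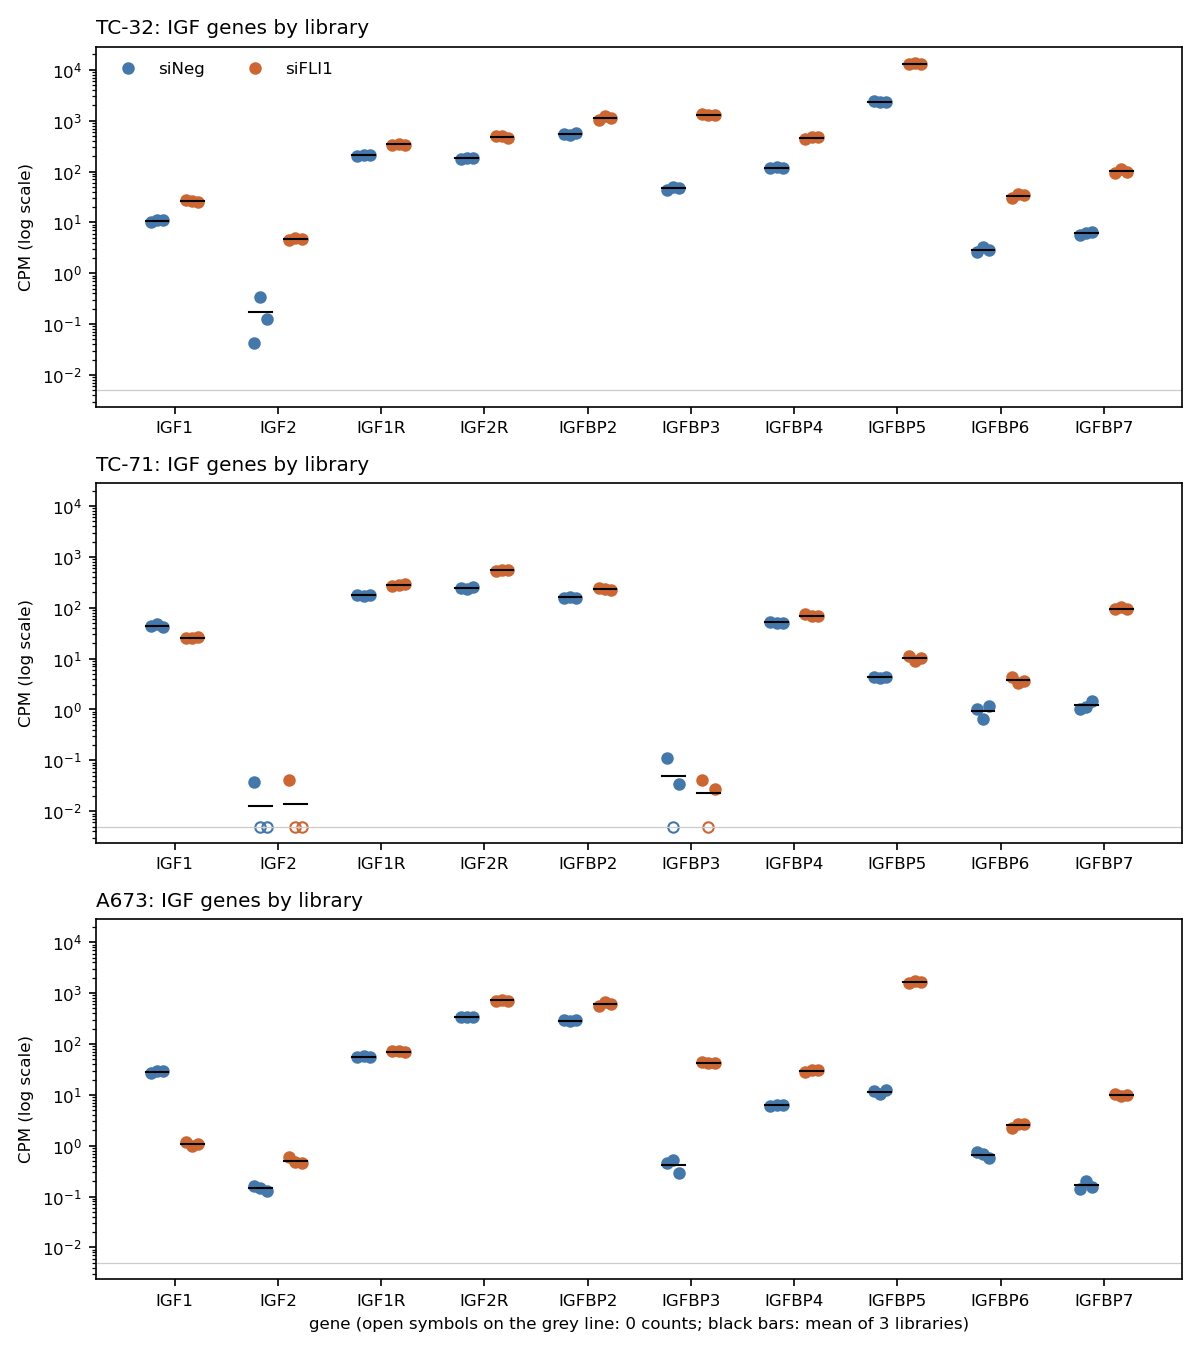
CPM (log scale) of the 10 IGF genes in each library, with 1 panel per line, siNeg in blue, siFLI1 in orange and a bar at the mean of 3 libraries. The siFLI1 points lie above the siNeg points for every gene in TC-32, and IGF1 lies lower in siFLI1 in TC-71 and A673, where its mean went from 28.6 to 1.10 CPM; open symbols are 0 counts.

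IGF1 went in opposite directions: it rose in TC-32 and fell in TC-71 and A673. In TC-32, the siNeg libraries held 10.1, 11.01 and 10.9 CPM of IGF1 and the siFLI1 libraries 27.5, 26.8 and 25.6. In TC-71, the corresponding values were 43.6, 47.9 and 42.0 in siNeg and 24.9, 25.8 and 26.9 in siFLI1. In A673, they were 27.3, 29.2 and 29.3 in siNeg and 1.20, 1.00 and 1.10 in siFLI1. The siFLI1 libraries were all above the siNeg libraries in TC-32 and all below them in the other lines. The LFC of IGF1 was 1.32 ± 0.077 (SE, n = 3 per group, adjusted p = 5.73e-14 by edgeR) in TC-32. The values were -0.77 ± 0.065 (adjusted p = 9.21e-12 by edgeR) in TC-71 and -4.70 ± 0.074 (adjusted p = 1.03e-17 by edgeR) in A673.

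IGF1 (ENSG00000017427.16) lies on the minus strand of chromosome 12 from 102395874 to 102481744 in GENCODE release 44 (GRCh38). It shares 6693 of its 8115 exon bases, 82.5%, with HELLPAR, a long noncoding RNA gene on the opposite strand. HELLPAR was lower in siFLI1 in every line, including TC-32, where IGF1 was higher. TC-32 went from a mean of 6.22 to 1.75 CPM of HELLPAR (LFC -1.83, adjusted p = 8.21e-11 by edgeR), and TC-71 from 23.4 to 6.75 (-1.78, 3.58e-14). The A673 means were 5.33 and 4.33 CPM (-0.30, adjusted p = 0.00303 by edgeR). The library kit keeps strand, but the strand setting used in counting is not given in the sources used here. Without it, reads from the shared bases cannot be told apart, and their part in the IGF1 values was not tested.

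**Figure D2:**
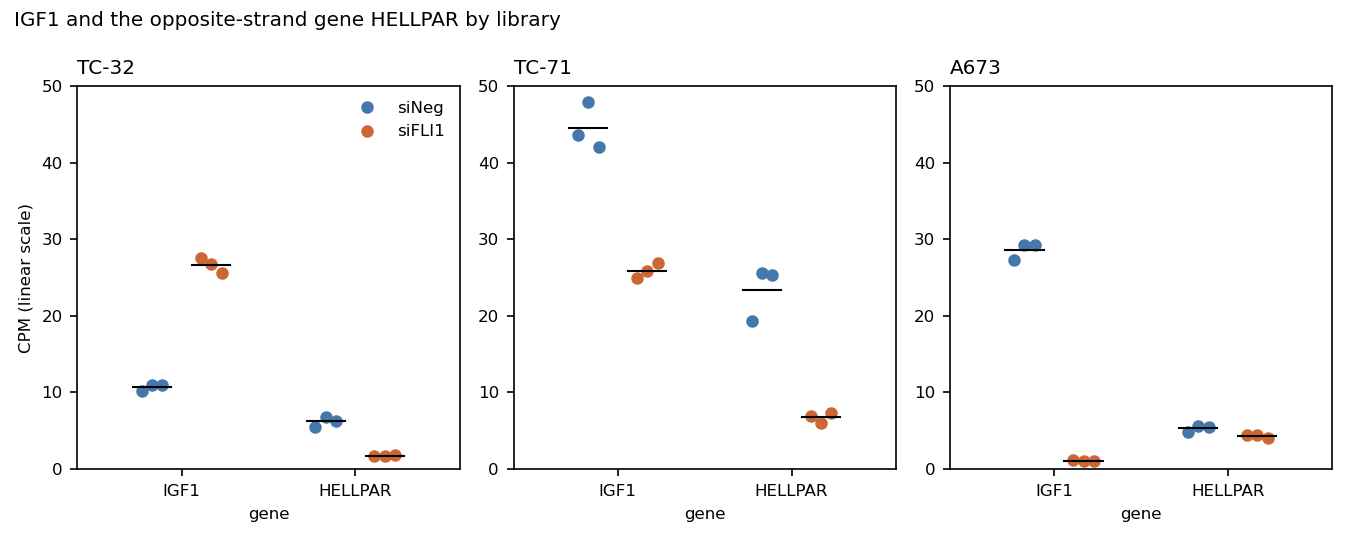
CPM (linear scale) of IGF1 and of the opposite-strand gene HELLPAR in each library, by line, with siNeg in blue, siFLI1 in orange and bars at the mean of 3 libraries. In TC-32, IGF1 rose from a mean of 10.7 to 26.7 CPM while HELLPAR fell from 6.22 to 1.75; in A673, IGF1 fell to 1.10 CPM and HELLPAR stayed between 4.12 and 5.60.

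IGF2, the fetal growth factor expressed from an imprinted locus, was low in every line. In TC-32, the siNeg libraries held 1, 9 and 3.01 expected counts of IGF2 and the siFLI1 libraries 117.22, 163.32 and 139.66, or 0.042, 0.34 and 0.13 CPM against 4.49, 4.85 and 4.73. The groups did not overlap. The fitted LFC was 4.71 ± 0.31 (SE), given as a description, since the gene passed the filter through siFLI1 alone. Without the library siNeg replicate 2, which held 9 counts, it was 5.72. In A673, IGF2 went from 0.16, 0.15 and 0.13 CPM in siNeg to 0.59, 0.48 and 0.45 in siFLI1, an LFC of 1.81 ± 0.26 (adjusted p = 9.63e-06 by edgeR). With all libraries thinned to 19685354 counts, IGF2 was not tested in A673. In TC-71 it had 0 or 1 counts per library, and 0 counts allow up to 0.152 CPM in the shallowest library.

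IGF2 (ENSG00000167244.19, minus strand of chromosome 11, 2129112 to 2158391) has 43.2% of its exon bases in common with same-strand genes, among them a protein-coding gene with no symbol and INS-IGF2, and 4.66% with the antisense gene IGF2-AS. These partners held at most 10.02 counts in any library. Reads from the shared bases can be dropped or split by the counting tool, so IGF2 values are uncertain, and this was not tested. H19, a noncoding RNA gene of the same imprinted region 124.56 kb away, falls outside the naming rule and was picked after its values were seen. It went from 6, 5 and 2 counts in the TC-32 siNeg libraries to 5287, 7858 and 6931 in siFLI1, a fitted LFC of 10.28, and passed the filter there only through the siFLI1 libraries. In TC-71, where IGF2 was at 0 or 1 counts, H19 went from 0.48 to 4.38 CPM (LFC 3.17). No test is given for H19. A673 held 0 counts of H19 in siNeg and at most 4 in siFLI1, and it was not tested there.

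Both receptors were higher in siFLI1 in every line, IGF2R with the larger LFC in each. IGF1R (ENSG00000140443.13, plus strand of chromosome 15, 98648539 to 98964530) went from 205, 208 and 213 CPM in TC-32 siNeg to 336, 354 and 336 in siFLI1. In TC-71 it went from 176, 170 and 180 CPM to 272, 282 and 287. A673 went from 55.8, 57.5 and 56.2 CPM to 71.2, 72.5 and 69.0. The groups did not overlap in any line. The LFCs of IGF1R were 0.71 ± 0.041 (SE), 0.68 ± 0.043 and 0.33 ± 0.040 for TC-32, TC-71 and A673, with adjusted p of 4.70e-14, 1.17e-14 and 1.62e-06 by edgeR, and they did not reach 2-fold in any of them.

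IGF2R (ENSG00000197081.12, plus strand of chromosome 6, 159969082 to 160113507) had LFCs between 1.10 and 1.41. In TC-32 it went from 179, 181 and 186 CPM in siNeg to 491, 498 and 465 in siFLI1, an LFC of 1.41 ± 0.041 (SE). In TC-71 it went from 249.6, 236 and 260.2 CPM to 538, 552 and 553, an LFC of 1.14 ± 0.043. A673 went from 342, 338 and 334 CPM to 713, 741 and 715, an LFC of 1.10 ± 0.033. Every siFLI1 library was above every siNeg library of its line, and the largest edgeR adjusted p of the 3 was 4.03e-14. A pseudogene on the same strand shares 2.53% of the exon bases of IGF2R and held at most 393 counts in a library, against at least 4275 for IGF2R.

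**Figure D3:**
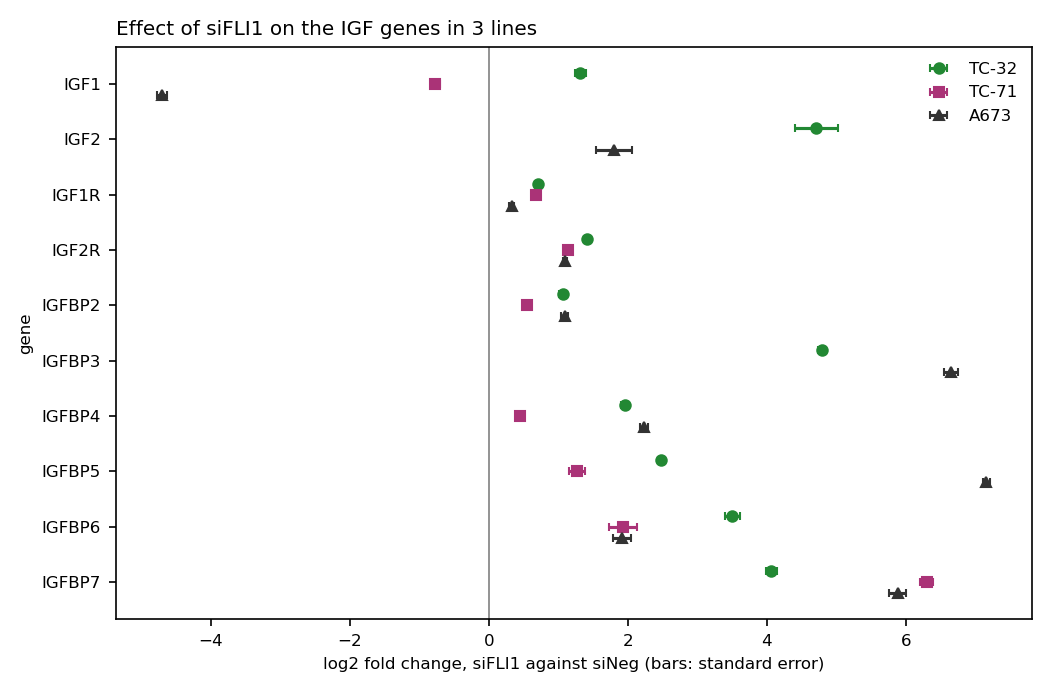
LFC of each IGF gene (siFLI1 against siNeg, x axis) with its standard error, for TC-32 (green circles), TC-71 (purple squares) and A673 (black triangles). IGF1 spans both sides of 0, from -4.70 to 1.32; the receptors sit close together between 0.33 and 1.41; IGFBP3, IGFBP5 and IGFBP7 reach 6.65, 7.16 and 6.30, and IGF2 and IGFBP3 have no point in TC-71.

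IGFBP3, the main carrier of IGFs in serum, rose in TC-32 and A673 and was not detected above the floor of 3 counts in TC-71. In TC-32, the siNeg libraries held 43.5, 48.9 and 47.8 CPM of IGFBP3 and the siFLI1 libraries 1328, 1282 and 1272, an LFC of 4.79 ± 0.049 (SE, adjusted p = 2.63e-28 by edgeR). In A673 the values were 0.46, 0.53 and 0.29 CPM in siNeg and 44.03, 42.8 and 41.7 in siFLI1, an LFC of 6.65 ± 0.10 (adjusted p = 6.74e-18 by edgeR). In both lines the siFLI1 libraries lay far above the siNeg libraries. In TC-71, the libraries held 3, 0 and 1 counts in siNeg and 1, 0 and 1 in siFLI1, so no fold is given. IGFBP3 (ENSG00000146674.14, minus strand of chromosome 7, 45912245 to 45921874) lies 18.58 kb from IGFBP1, a liver-expressed binding protein gene that was not tested in any line.

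IGFBP5, which binds to bone matrix and extracellular matrix, had the largest increase of the 10 genes in A673 and the highest level in TC-32. In A673 it went from 11.6, 10.6 and 12.2 CPM in siNeg to 1608, 1699.9 and 1622 in siFLI1, an LFC of 7.16 ± 0.056 (SE, adjusted p = 1.67e-20 by edgeR). In TC-32 it went from 2385, 2328 and 2338 CPM to 12733, 13394 and 12983, an LFC of 2.47 ± 0.036 (adjusted p = 9.51e-26 by edgeR). TC-71 stayed low, at 4.27, 4.21 and 4.37 CPM in siNeg and 11.4, 9.14 and 10.5 in siFLI1, an LFC of 1.27 ± 0.11 (adjusted p = 4.86e-11 by edgeR). The siNeg and siFLI1 libraries did not overlap in any line.

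IGFBP5 (ENSG00000115461.4, minus strand) and IGFBP2 (ENSG00000115457.9, plus strand) lie end to end on chromosome 2, 7.67 kb apart, with IGFBP2 from 216632828 to 216664436 and IGFBP5 from 216672105 to 216695549. IGFBP2, which binds both IGFs and is raised in many tumours, rose 2.13-fold in A673 and 2.10-fold in TC-32, where its neighbour rose 143-fold and 5.55-fold. IGFBP2 went from 542, 529 and 567 CPM to 1045, 1250.0 and 1142 in TC-32 (LFC 1.07 ± 0.053, SE, adjusted p = 4.14e-12 by edgeR). A673 went from 294, 281 and 292 CPM to 558, 663 and 623 (1.09 ± 0.050, adjusted p = 8.85e-12 by edgeR). In TC-71 it went from 156, 164 and 158 CPM to 244, 237 and 219 (0.55 ± 0.046, adjusted p = 6.96e-12 by edgeR). The groups did not overlap in any of the lines. An antisense gene, DIRC3-AS1, shares 7.53% of the exon bases of IGFBP5 and held at most 11 counts in a library.

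IGFBP7, which binds IGFs weakly and insulin as well, had the largest increase of the tested genes in TC-71. There the siNeg libraries held 1.00, 1.12 and 1.49 CPM of IGFBP7 and the siFLI1 libraries 94.1, 101 and 93.3, an LFC of 6.30 ± 0.098 (SE, adjusted p = 2.39e-29 by edgeR). In TC-32 it went from 5.65, 6.14 and 6.40 CPM to 94.2, 111 and 99.4 (4.07 ± 0.080, adjusted p = 2.71e-23 by edgeR). The A673 libraries went from 0.14, 0.20 and 0.15 CPM to 10.3, 9.63 and 9.71 (5.88 ± 0.12, adjusted p = 2.37e-16 by edgeR). The mean siFLI1 levels of IGFBP7 were 102 CPM in TC-32 and 96.2 in TC-71, and 9.87 in A673. IGFBP7 (ENSG00000163453.11, minus strand of chromosome 4, 57030773 to 57110385) shares 13.5% of its exon bases with POLR2B, an RNA polymerase subunit gene on the opposite strand. Mean POLR2B was 176 and 105 CPM in siNeg and siFLI1 of TC-32, 219 and 202 in TC-71, and 127 and 119.8 in A673, and its part in the IGFBP7 values was not tested.

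IGFBP4, an inhibitory binding protein that the protease PAPPA cuts to release the bound IGF, rose by more in TC-32 and A673 than in TC-71. In A673 it went from 6.12, 6.21 and 6.34 CPM to 27.5, 30.2 and 30.4 (LFC 2.24 ± 0.057, SE). In TC-32 it went from 118, 120.2 and 119.7 CPM to 431, 482 and 474 (1.95 ± 0.046), and in TC-71 from 52.2, 51.2 and 50.97 to 73.7, 69.7 and 67.6 (0.45 ± 0.053). Every siFLI1 library was above every siNeg library of its line, and the largest edgeR adjusted p was 1.13e-08, in TC-71.

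IGFBP6, which prefers IGF2 to IGF1, was the lowest of the binding protein genes in TC-32. It went there from 2.60, 3.24 and 2.90 CPM in siNeg to 29.5, 35.9 and 34.1 in siFLI1 (LFC 3.51 ± 0.11, SE). In TC-71 it went from 1.00, 0.66 and 1.18 CPM to 4.26, 3.33 and 3.66 (1.93 ± 0.21), and in A673 from 0.75, 0.68 and 0.58 to 2.27, 2.69 and 2.62 (1.91 ± 0.13). The groups did not overlap, and the largest edgeR adjusted p was 1.42e-09, in A673. IGFBP4 (ENSG00000141753.6) lies on the plus strand of chromosome 17 from 40443450 to 40457725 and IGFBP6 (ENSG00000167779.7) on the plus strand of chromosome 12 from 53097436 to 53102345, and neither shares exon bases with another gene.

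To compare levels between genes, CPM were divided by the exon length in kilobases. On this scale, the 6 binding protein genes summed to 548 ± 5.06 (SD, n = 3) CPM per kilobase in TC-32 siNeg and 2828 ± 86.5 in siFLI1, a ratio of 5.16. In A673 the sum went from 66.2 ± 1.56 to 414 ± 18.6, a ratio of 6.25, and in TC-71 from 58.9 ± 0.51 to 135 ± 5.15, a ratio of 2.30. The siNeg sums of TC-71 and A673 were close to each other and well below that of TC-32, and the siFLI1 sum of A673 remained below the siNeg sum of TC-32. As a share of all counts, the binding protein genes took 0.302% in siNeg and 1.63% in siFLI1 of TC-32, 0.0319% and 0.226% in A673, and 0.0218% and 0.0412% in TC-71.

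The gene that made up most of the sum differed between the lines. IGFBP5 took 66.3% of it in TC-32 siNeg and 71.3% in siFLI1. In A673, IGFBP2 took 92.0% in siNeg and 31.3% in siFLI1, where IGFBP5 took 61.5% after 2.68% in siNeg. In TC-71, IGFBP2 took 56.97% in siNeg and 36.3% in siFLI1, with IGFBP5 at 1.13% and 1.18%. The stacked plot of the binding protein sums shows that IGFBP7 made up most of the increase in TC-71, from 0.62 to 49.9 CPM per kilobase, beside IGFBP2 (33.5 to 49.2) and IGFBP4 (23.3 to 31.9). In A673, IGFBP5 made up most of it, from 1.78 to 254, beside IGFBP2 (60.9 to 129.7).

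**Figure D4:**
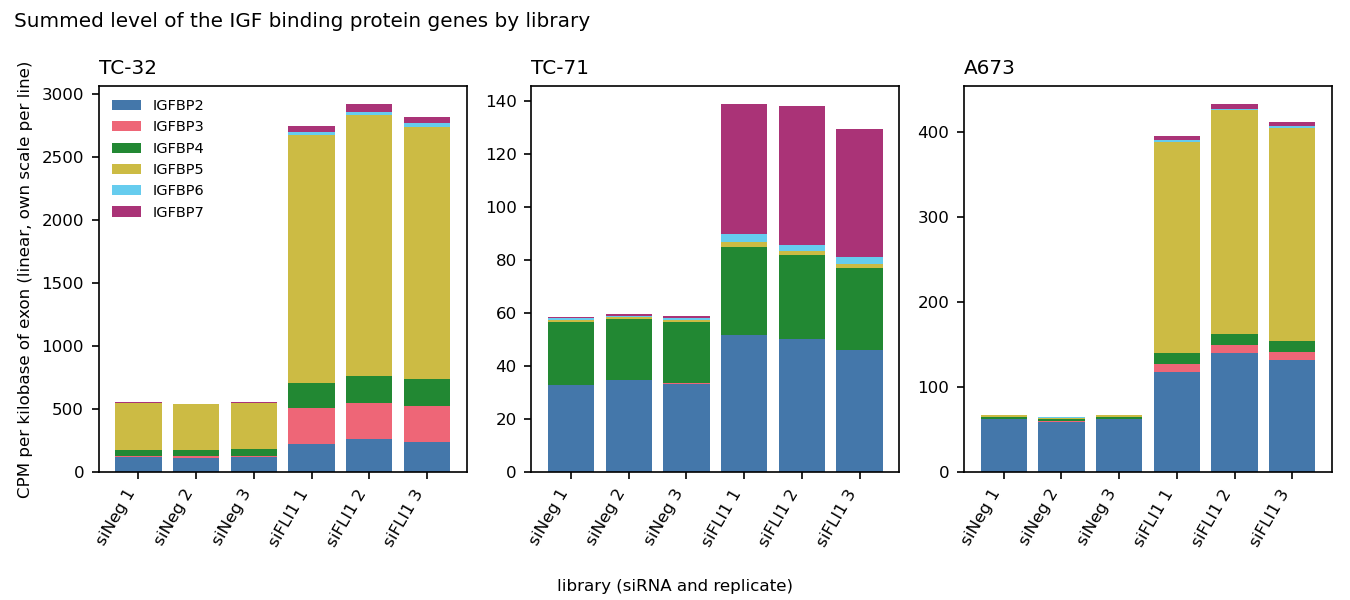
Summed level of the 6 binding protein genes in each library, in CPM per kilobase of exon on a linear axis of its own for each line, with 1 colour per gene. The mean sum is 548 in siNeg and 2828 in siFLI1 for TC-32, 58.9 and 135 for TC-71, and 66.2 and 414 for A673, and IGFBP5 fills most of the bar in TC-32 and in A673 siFLI1.

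On the same scale, both receptor genes lay above both ligand genes and below IGFBP2 in the siNeg libraries of every line, while the other binding protein genes lay on either side of them. IGF1R stood at 15.0 and IGF2R at 8.04 CPM per kilobase in TC-32, at 12.6 and 10.99 in TC-71, and at 4.05 and 14.9 in A673. IGF1R was therefore the higher of the 2 receptor genes in siNeg in TC-32 and TC-71, and IGF2R in A673. IGF1 stood at 1.32, 5.48 and 3.53 CPM per kilobase in siNeg (TC-32, TC-71 and A673 in turn), and at 3.28, 3.19 and 0.14 in siFLI1, so its levels in TC-32 and TC-71 siFLI1 were close. IGF2 did not exceed 0.66 in any group.

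The effects of siFLI1 were then compared between pairs of lines, in 1 edgeR model over the 18 libraries. Between TC-32 and A673, the effect differed for 9 of the 10 IGF genes, or 8 of 9 without IGF2, against 62.1% of 19610 genes tested. Between TC-32 and TC-71 it differed for 8 of 10, against 53.6%, and between A673 and TC-71 for 6 of 10, against 51.6%. Both of these tallies count IGFBP3, which had at most 3 counts per TC-71 library and was not tested within that line. Its part in them is no support. The IGF1 effect differed in every pair of lines, by 6.04 ± 0.11 (log2, SE) between TC-32 and A673 (adjusted p = 7.53e-31 by edgeR), by 2.08 ± 0.097 between TC-32 and TC-71 (4.60e-19) and by -3.96 ± 0.10 between A673 and TC-71 (4.68e-26). The IGFBP5 effect was 4.66 log2 units smaller in TC-32 than in A673 (difference -4.66 ± 0.061, adjusted p = 2.60e-34 by edgeR). The IGFBP2 effect was not shown to differ between TC-32 and A673 (0.0048 ± 0.076, adjusted p = 0.993 by edgeR), and neither was the IGF1R effect between TC-32 and TC-71 (0.026 ± 0.057, 0.748).

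The effects on IGF2R, IGFBP6 and IGFBP7 were not shown to differ between A673 and TC-71, with differences of -0.074 ± 0.055 (adjusted p = 0.286 by edgeR), -0.053 ± 0.25 (0.913) and -0.46 ± 0.25 (0.143). Scaled by library size alone, the IGF2R difference passed the threshold (-0.13, adjusted p = 0.0403 by edgeR), and so did that of IGFBP7 without TC-71 siNeg replicate 3 (-0.68, adjusted p = 0.0456). The IGFBP4 difference between TC-32 and A673 (-0.26 ± 0.069, adjusted p = 0.00134) missed it under library size alone (-0.14, adjusted p = 0.0746) and with thinned counts (-0.091, adjusted p = 0.458). Differences for IGF2 and IGFBP3 that involve TC-71 rest on at most 3 counts per TC-71 library. Comparisons between lines do not share libraries within a pair, but each line enters 2 of the 3 pairs.

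Other genes of the IGF pathway were described in 5 lists of 52 genes in all. In TC-32, 47 were tested, 24 were called higher and 15 lower, with a median LFC of 0.18. For TC-71 the counts were 25 higher and 13 lower of 43 tested (median 0.33), and for A673 they were 25 higher and 12 lower of 45 tested (median 0.14). In these lists, PAPPA2 and H19 in TC-32 and HTRA1 in TC-71 had under 10 counts in every siNeg library and passed the filter only through siFLI1. Without them, 22 were higher and 15 lower of 45 in TC-32, and 24 and 13 of 42 in TC-71. Genes with under 10 counts in only some siNeg libraries stay in these numbers. Among them are INSRR (1 to 11 counts) and IGFBPL1 (5 to 15) in TC-32, both called higher. These 2 also passed the filter only through siFLI1, and their part in the tally is no support. The shares of all genes called in each direction are those given above for each line. The 5 lists are set side by side in the plot of pathway genes.

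Among the proteases that cut binding proteins and their inhibitors, 4 of 6 tested genes were called higher and 1 lower in TC-32, 4 of 5 and 1 in TC-71, and 5 of 6 and 0 in A673. The higher calls include PAPPA2 in TC-32 and HTRA1 in TC-71, which passed the filter only through siFLI1 and are no support. Over all genes tested, 41.3% were called higher and 40.1% lower in TC-32, 36.8% and 35% in TC-71, and 35.6% and 35.4% in A673. These shares also stand beside the tallies of the lists below. BMP1, a metalloprotease that processes collagen and can cut IGFBP3, rose about evenly, with LFCs of 2.48, 2.77 and 2.65 for TC-32, TC-71 and A673. HTRA1, a serine protease that cuts IGFBP5, rose by 1.89 in TC-32 and 5.40 in A673. In TC-71 it had 1 to 9 counts per siNeg library and 82 to 110 per siFLI1 library, with a fitted LFC of 4.46 given as a description. PAPPA, the protease of IGFBP4, fell in TC-32 (-1.04) and rose in TC-71 (0.44) and A673 (1.16). STC2, an inhibitor of PAPPA, rose in TC-32 (0.66) and A673 (0.97) and fell in TC-71 (-0.38). PAPPA and STC2 thus moved in opposite directions in TC-32 and TC-71 and in the same direction in A673. The changes given for BMP1, PAPPA and STC2, and for HTRA1 in TC-32 and A673, passed the edgeR test, and PAPPA overlaps opposite-strand exons over 21.1% of its exon bases.

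Among receptor adaptors and feedback genes, 2 of 10 tested were called higher and 4 lower in TC-32, 4 and 5 of 10 in TC-71, and 5 and 3 of 9 in A673. IRS2, an adaptor of IGF1R and the insulin receptor, fell in each line (LFCs -0.47, -1.51 and -1.62 in TC-32, TC-71 and A673). IRS1, its close relative, fell in TC-32 (-0.24) and TC-71 (-0.61) and rose in A673 (0.51). SHC1, the adaptor to the MAP kinase branch, rose in every line (0.39, 1.12 and 0.62), as did SOS2, an exchange factor for RAS (1.55, 0.98 and 0.59). SOS1 rose in TC-71 (0.14) and fell in TC-32 (-0.13) and A673 (-0.19), and PTPN11, the phosphatase SHP2, fell in each line (-1.07, -0.70 and -0.28).

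In the PI3K, AKT and mTOR list, 11 of 20 tested genes were called higher and 7 lower in TC-32, 10 and 5 of 19 in TC-71, and 9 and 7 of 20 in A673. EIF4EBP1, the translation repressor that mTOR inactivates, fell in each line (LFCs -2.06, -1.25 and -0.88 in TC-32, TC-71 and A673). GSK3B, a kinase inhibited by AKT, rose (0.42, 0.33 and 0.17). MTOR itself fell (-0.51, -0.45 and -0.29). PIK3R1, the regulatory subunit of PI3K, rose in TC-32 (1.84) and TC-71 (0.32) and fell in A673 (-0.33), and PIK3CD, a catalytic subunit, rose in TC-32 (1.10) and A673 (1.92) and fell in TC-71 (-0.27).

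The list of IGF2 mRNA-binding proteins and regulators of the IGF2 locus had 4 genes called higher and 3 lower of 7 tested in TC-32, 5 and 2 of 7 in TC-71, and 4 and 1 of 6 in A673. In TC-32 the 4 include H19, which passed the filter only through siFLI1, so its call is no support. IGF2BP1, which binds and stabilises target mRNAs, fell in each line (LFCs -1.11, -0.58 and -0.64), while its relatives IGF2BP2 (0.37, 0.86 and 1.01) and IGF2BP3 (0.67, 0.94 and 0.80) rose. The chromatin protein genes HMGA1 and HMGA2 moved differently in the lines: HMGA1 fell in TC-32 (-1.34) and TC-71 (-1.10) and rose in A673 (0.89), and HMGA2 fell in TC-32 (-0.32) and rose in TC-71 (1.02) and A673 (1.08). Among other members of the IGF family, 3 of 4 tested were called higher and 0 lower in TC-32, 2 of 2 and 0 in TC-71, and 2 and 1 of 4 in A673. The higher calls of TC-32 include INSRR, with 1 to 11 counts per siNeg library and 30 to 51 per siFLI1 library. They also include IGFBPL1, with 5 to 15 and 53 to 69. Both passed the filter there only through siFLI1, so their calls are no support. KAZALD1, a gene related to the binding proteins, rose in TC-32 (0.61) and TC-71 (0.76) and fell in A673 (-0.63). INSR, the insulin receptor and a partner of IGF1R in hybrid receptors, was looked at after its values were seen: it rose in TC-71, from 38.1 to 65.4 CPM, and was at 36.4 and 35.1 in TC-32 (adjusted p = 0.417 by edgeR) and 28.7 and 27.1 in A673 (0.107).

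**Figure D5:**
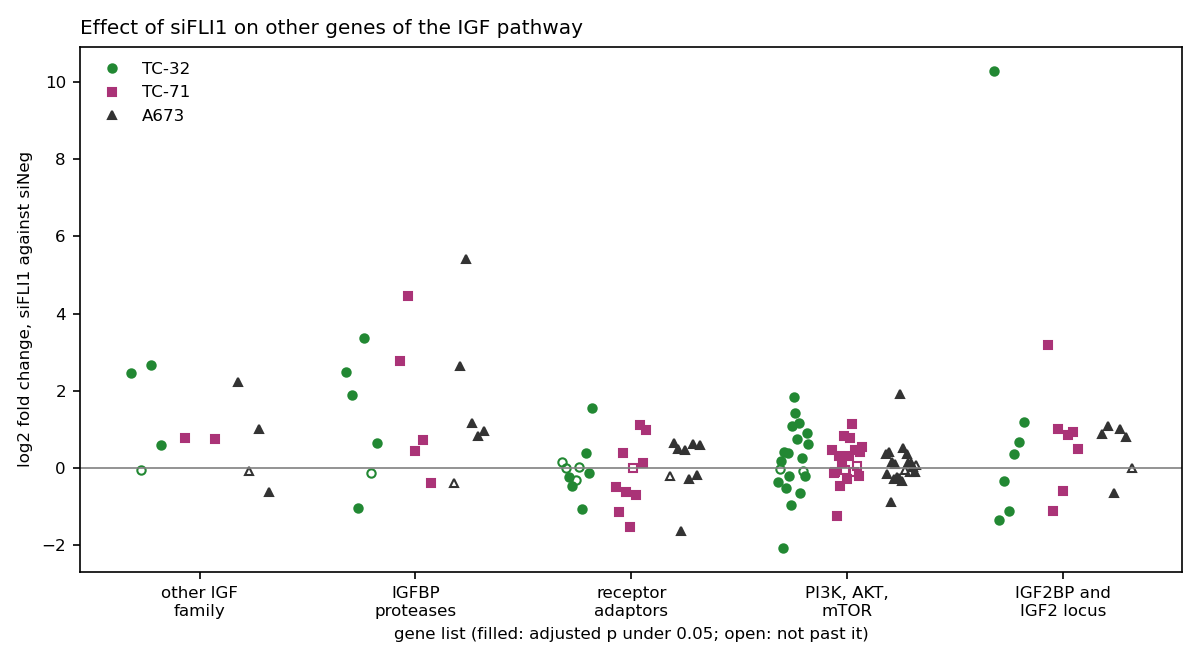
LFC (siFLI1 against siNeg, y axis) of each tested gene of the 5 pathway lists, by line, with filled symbols for an edgeR adjusted p under 0.05. Points lie on both sides of 0 in most lists; HTRA1 reaches 5.40 in A673 among the proteases, and the highest point is H19 in TC-32, at 10.28.

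The genes whose log2 CPM over the 18 libraries were most like those of 3 IGF genes are given as a description, since the libraries share lines and siRNAs. These CPM were scaled over all 18 libraries, across lines and counting tools. For IGF1 they were PEX11A, MTSS1 and CLSTN2, with Pearson correlations of 0.966, 0.953 and 0.938. CLSTN2 had LFCs of 1.23, -0.83 and -2.62 for TC-32, TC-71 and A673, where IGF1 had 1.32, -0.77 and -4.70. In the same order, the LFCs were 0.50, -0.33 and -0.96 for PEX11A and 0.57, 0.014 and -1.16 for MTSS1. MTSS1 thus did not fall in TC-71, where IGF1 did. For IGF1R the most similar genes were ZNF853, IL17RA and FBXO25 (0.992, 0.990 and 0.989), and for IGF2R they were FBXW8, FNDC3B and CREB3L1 (0.991, 0.990 and 0.989). IGF2, which was not tested in TC-71, was left out of this search.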

How the data were processed

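RNA was sequenced from 18 libraries with a stranded messenger RNA kit, per the labels' protocols. The TC-32 and A673 tables, as deposited by the authors, hold expected counts per gene, and their names point to RSEM. The TC-71 table, as deposited by the authors, holds whole-number counts per gene, and its name points to Subread. Per the submitters' processing notes, the tools were cutadapt 4.4, STAR 2.7.3, featureCounts, Subread 2.0.3 and limma 3.38.3 on GRCh38, with no roles stated. The annotation release, strand setting and filters are not given in the sources used here. The line of the TC-32 and TC-71 columns rests on the table names.

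Expected counts were rounded. The lines were fitted separately by edgeR 4.0.16 in R 4.3.3, after filterByExpr by group and TMM scaling, by the robust quasi-likelihood F-test with a prior count of 0.125. Benjamini-Hochberg adjustment ran over all genes tested in the line, with calls made at 0.05. Standard errors are from unshrunken coefficients. Differences between lines were contrasts in 1 model of the 6 group means. The floor is 3 counts, the limit that 0 counts allow (0.0246 to 0.152 CPM by library), and covers counting error only, since no molecular identifiers are recorded. The lowest Pearson correlation of log2 CPM over the 18 pairs of replicates was 0.995, and chi-square per degree of freedom was at least 2.45, so no library looked like a copy of another.

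The 10 IGF genes, the 5 pathway lists and the marker lists were chosen with earlier results of these data known. Named pathway genes are, per list, up to 4 called in the same direction in all 3 lines with the largest smallest change, and up to 2 called in opposite directions with the largest gap. Also named are genes that share exon bases with an IGF gene and, for ligands and receptors tested in all 3 lines, the 3 genes with the highest correlation (log2 of CPM plus 0.5, mean log2 CPM of at least 1). Positions, lengths and overlaps are from GENCODE release 44, which Python 3.11.15 read and which holds 57754 of the 58336 gene identifiers. The alternatives run were DESeq2 1.42.0 and voom from limma 3.58.1, scaling by RLE or by library size alone, no filter or a minimum mean of 10 counts, expected counts left unrounded, a replicate block, thinning to 19685354 counts, each library left out in turn, and, between lines, a fit of those 12 libraries only. The fits were tested on simulated data, with the same spread for every gene and 200 well-counted genes raised 2-fold. That simulation does not cover low-count genes or genes that fall. 1 gene that the naming rule picks is not reported here. Protein sequences were not used here.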

Additional observations from a re-analysis of the deposited data

Results flagged for a closer look

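The effect of siFLI1 (a log2 fold change against siNeg) was compared between lines in the edgeR model over 18 libraries. It differed for 23 of the 30 IGF gene and line-pair differences tested, each the first line minus the second. Over all 19610 genes tested, the share that differed ran from 51.6% (A673 with TC-71) to 62.1% (TC-32 with A673). The 23 include IGF2 for TC-32 minus A673, which passed the filter in TC-32 only through siFLI1. They also include IGFBP3 in both pairs with TC-71, at no more than 3 counts per TC-71 library. The part of these IGF2 and IGFBP3 differences in the count is no support. For the ligands, the IGF1 difference was 6.04 for TC-32 minus A673, 2.08 for TC-32 minus TC-71 and -3.96 for A673 minus TC-71, and the IGF2 difference was 2.96 for TC-32 minus A673. That of IGF2 was 3.999 without TC-32 siNeg replicate 2.

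For the receptors, the IGF1R difference was 0.41 for TC-32 minus A673 and -0.38 for A673 minus TC-71. The IGF2R difference was 0.34 for TC-32 minus A673 and 0.27 for TC-32 minus TC-71.

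Among the binding proteins, TC-32 minus A673 gave -1.83 for IGFBP3, -0.26 for IGFBP4, -4.66 for IGFBP5, 1.62 for IGFBP6 and -1.78 for IGFBP7. TC-32 minus TC-71 gave 0.51 for IGFBP2, 5.91 for IGFBP3, 1.498 for IGFBP4, 1.20 for IGFBP5, 1.57 for IGFBP6 and -2.24 for IGFBP7. A673 minus TC-71 gave 0.50 for IGFBP2, 7.74 for IGFBP3, 1.76 for IGFBP4 and 5.86 for IGFBP5. Both IGFBP3 values with TC-71 rest on at most 3 counts per TC-71 library and are no bounds. Without TC-71 siNeg replicate 1 they were 4.65 (edgeR adjusted p = 0.0948) and 6.47 (0.0355).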

How the results depend on the processing

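The 28 IGF gene effects within lines kept their direction and their call under each of the 411 alternative values computed. They include IGF2 in TC-32, which passed the filter only through siFLI1, so its unchanged call is no support. Under thinning, IGF2 was not tested in A673, and with no filter TC-71 gave IGF2 at -0.14 (edgeR adjusted p = 0.954) and IGFBP3 at -1.06 (0.567). Library size alone left 6 IGF genes of A673 at least 2-fold higher, against 8.

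Of 660 values for differences between lines, 636 kept direction and call, 15 changed sign, 6 passed the threshold and 3 missed it. The sign changes were in differences that had not passed. For IGF2 between A673 and TC-71, thinning gave -0.15 and leaving out 1 library -0.63 to 4.37. The standard errors were 193582000 for -0.15 and 268460000 for -0.63, so these sizes are not determined. For IGFBP2 between TC-32 and A673, the 12 libraries alone gave -0.064 and leaving out 1 library -0.060 to 0.072. For IGFBP6 between A673 and TC-71, thinning gave 0.27, the 12 libraries alone 0.016, and leaving out 1 library -0.26 to 0.10. For IGF1R between TC-32 and TC-71, leaving out 1 library gave -0.0066 to 0.050. The IGFBP4 difference between TC-32 and A673 missed the threshold under library size alone (-0.14, edgeR adjusted p = 0.0746) and thinning (-0.091, 0.458); the cause was not tested. The IGF2 difference between TC-32 and TC-71 passed it with DESeq2 (5.02), voom (5.17), without TC-32 siNeg replicate 2 (5.94) and without TC-71 siFLI1 replicate 1 (7.33). The 7.33 had a standard error of 58871500, so its size is not determined. IGF2 passed the filter in TC-32 only through siFLI1 and had 0 or 1 counts per TC-71 library. These calls are therefore no support.

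Same-numbered libraries did not deviate together (correlations of -0.205 to 0.0531), so the numbers were not taken as pairs. With the replicate block, 10, 8 and 10 IGF genes were called in TC-32, TC-71 and A673, as without it, and 80.4%, 70.5% and 67.6% of all genes, against 81.4%, 71.9% and 71.004%. The 10 of TC-32 include IGF2, whose call there is no support. Counts of 3 or fewer limit IGF2 and IGFBP3 in TC-71.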
